A study of Mus musculus with 8 samples.

Results

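The phase II conjugating enzymes of the liver were followed in 4 WT mice and 4 mice that had lost Nus1, which encodes NgBR, in the liver (N-LKO). The group held every gene of the deposited count table whose symbol names a glutathione S-transferase (Gst with a class letter and number), a UDP-glucuronosyltransferase (Ugt) or a cytosolic sulfotransferase (Sult), which gave 47 of 19642 genes. There were 20 GST, 19 UGT and 8 SULT genes. Of these, 44 averaged at least 0.5 CPM (counts scaled to the library's size) over the 8 livers. The other 3 were Gsta1, Ugt1a2 and Ugt1a8. The same 44 passed the filter on low counts and were tested.

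All mice were male C57BL6 animals on a chow diet (CD). The sample titles give 8 weeks on the diet, as the study's own text does for chow-fed livers, whereas the treatment entry gives 16 weeks. N-LKO mice carried loxP sites on both NgBR alleles and albumin-Cre, which is active in hepatocytes. The paper takes endothelial, stellate and Kupffer cells to keep NgBR. The loss in each cell type cannot be read from these bulk livers. The labels give the controls as WT. Each library was made from 1 mouse and held 14688404 to 18585412 counts. NgBR joins Dhdds in the cis-prenyltransferase that makes dolichol, the lipid carrier of glycans in protein glycosylation. Nus1 stood at 82.0, 90.4, 90.5 and 89.7 CPM in WT replicates 1 to 4, and at 33.3, 36.2, 38.7 and 38.7 CPM in the N-LKO livers, with no overlap (log2 fold change −1.26 ± 0.0748 SE, adjusted p = 3.06e-05).

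Phase II enzymes join a water-soluble group to drugs, hormones, bile pigments and products of lipid oxidation so that these can leave in bile or urine. GST enzymes use glutathione, UGT enzymes use glucuronic acid carried by UDP, and SULT enzymes use sulfate carried by PAPS. The liver is the main site of all 3 reactions. Many of these genes lie in tandem clusters of close copies, and the Ugt1a enzymes come from 1 locus in which separate first exons are joined to a common set of later exons.

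That arrangement bears on how a read can be assigned. The annotation (GENCODE M21, GRCm38) places 9 Ugt1a genes on the plus strand of chromosome 1 between 88055388 and 88220002, and 4 exons are held by all 9 of them. These exons begin at 88215044, 88215795, 88216138 and 88218127. The coding strand around the end of the first exon is printed for 4 of the genes, with 60 bases before the junction and 30 after it. Capitals mark bases that differ from Ugt1a9.
Ugt1a9: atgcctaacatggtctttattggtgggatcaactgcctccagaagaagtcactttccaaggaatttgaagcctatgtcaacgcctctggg
Ugt1a10: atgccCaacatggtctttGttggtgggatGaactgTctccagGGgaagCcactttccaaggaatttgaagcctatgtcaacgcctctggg
Ugt1a1: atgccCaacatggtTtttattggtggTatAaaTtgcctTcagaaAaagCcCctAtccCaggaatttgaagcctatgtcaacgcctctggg
Ugt1a5: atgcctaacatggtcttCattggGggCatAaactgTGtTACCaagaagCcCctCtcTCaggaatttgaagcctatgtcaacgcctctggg
Before the junction Ugt1a10 differed from Ugt1a9 at 7 bases, Ugt1a1 at 11 and Ugt1a5 at 15. After it no base differed, so a read from the later exons does not show which first exon was used.

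The Gstm and Gstp copies lie in clusters on chromosomes 3 and 19. The first 75 coding bases are printed for the copies that the results below compare, with capitals at differences from Gstm1 or from Gstp1.
Gstm1: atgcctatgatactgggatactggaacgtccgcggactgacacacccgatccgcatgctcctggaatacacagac
Gstm2: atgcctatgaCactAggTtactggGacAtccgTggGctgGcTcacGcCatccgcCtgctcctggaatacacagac
Gstm6: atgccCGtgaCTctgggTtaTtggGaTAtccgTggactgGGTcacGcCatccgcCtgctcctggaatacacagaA
Gstm4: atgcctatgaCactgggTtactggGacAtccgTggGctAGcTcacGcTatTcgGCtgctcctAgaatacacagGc
Gstp1: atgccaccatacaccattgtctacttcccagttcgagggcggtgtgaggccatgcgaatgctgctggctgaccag
Gstp2: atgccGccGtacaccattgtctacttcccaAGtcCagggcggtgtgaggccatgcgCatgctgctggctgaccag
Gstm2, Gstm6 and Gstm4 differed from Gstm1 at 12, 17 and 16 of these bases, and Gstp2 from Gstp1 at 6. Over the whole coding sequence Gstp1 and Gstp2 were 98.1% identical, and Gstm1 and Gstm2 86.0%.

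The transcripts of each member were cut into windows of 45 and of 75 bases, because the study's methods give both numbers for the run. A window was counted as shared when it also occurred in another annotated gene. Of the 47 members, 9 shared no window of 45 bases and 17 shared none of 75. Among the genes that the results turn on, Gsto1, Sult1d1, Sult1e1 and Sult1b1 shared none at either length. Ugt2b1 shared 0.12% of its 45-base windows and none of 75, and Gstt2 shared 2.18% and none. Ugt1a9 shared 63.3% and 59.4%. Values for Ugt1a genes, for Gstp1 and Gstp2, for Gsta1 and Gsta2 and for Ugt2b5 and Ugt2b38 therefore depend on how the counting divided common reads, and their single-gene values are uncertain. How reads on each strand were counted is not given in the sources used here, and exons of 12 members overlap an annotated exon on the other strand.

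**Figure D1:**
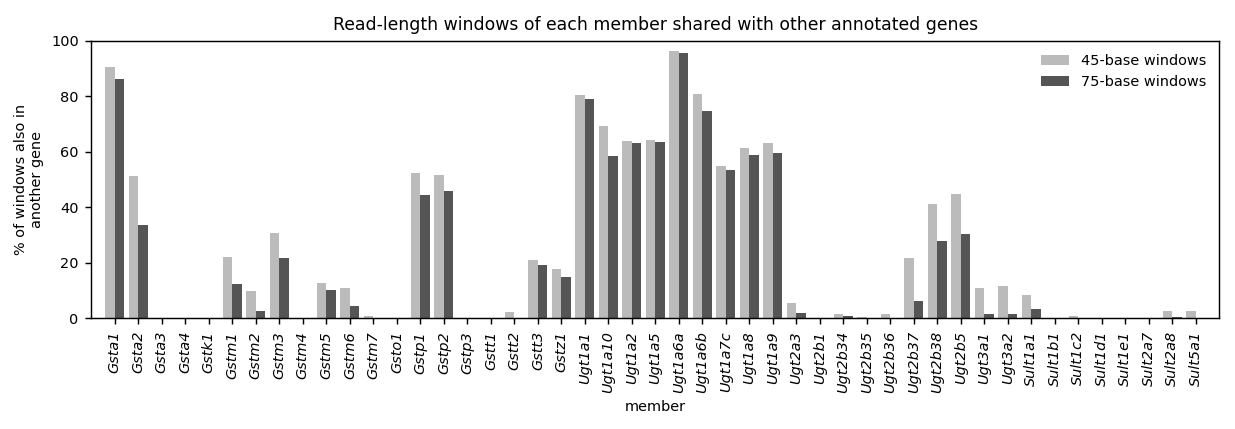
Percent of 45-base (light bars) and 75-base (dark bars) windows in the transcripts of each of the 47 members that also occur in another annotated gene. The Ugt1a genes, Gsta1, Gsta2 and the pair Gstp1 and Gstp2 stand high, whereas Gsto1, Sult1b1, Sult1d1 and Sult1e1 are at 0.

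The members together made up 0.549 to 0.746% of the counts in a liver. Their summed level was 6220 ± 529 CPM in WT (SD, n = 4) and 6987 ± 535 CPM in N-LKO (n = 4), with overlapping ranges of 5492 to 6636 and 6224 to 7463. GST genes summed to 1793 ± 224 and 1935 ± 232 CPM in WT and N-LKO, UGT genes to 3307 ± 365 and 3670 ± 56.2 CPM, and SULT genes to 1120 ± 137 and 1382 ± 280 CPM. The ranges of the genotypes overlapped in all 3 families. In a bulk liver sample, fewer cells of a type and less RNA per cell cannot be told apart.

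To compare genes with each other, CPM was divided by the length of the longest coding transcript. On this length-scaled level (CPM per kilobase), the highest GST gene in WT liver was Gstp1 at 478 ± 96.4. Gstm1 (274 ± 58.2) and Gstz1 (273 ± 22.0), which isomerizes an intermediate of tyrosine breakdown, followed with overlapping ranges, and Gsta3 (197 ± 35.8) came next. Among UGT genes Ugt2b5 (362 ± 80.6) stood above Ugt1a1 (257 ± 23.9), the bilirubin-conjugating enzyme, and Ugt2b36 (179 ± 28.8). Ugt3a2 (132.3 ± 9.07) and Ugt2b1 (123 ± 29.6) followed, and the ranges of Ugt2b36 and Ugt3a2 and of Ugt3a2 and Ugt2b1 overlapped. Of the SULT genes, Sult2a8, which acts on bile acids, and the phenol sulfotransferase Sult1a1 were highest and overlapped (274 ± 47.5 and 259 ± 67.5). Sult1d1 stood at 60.9 ± 35.1, Sult1b1 at 9.42 ± 3.59, and the other 4 SULT genes had WT means below 2 CPM per kilobase.

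**Figure D2:**
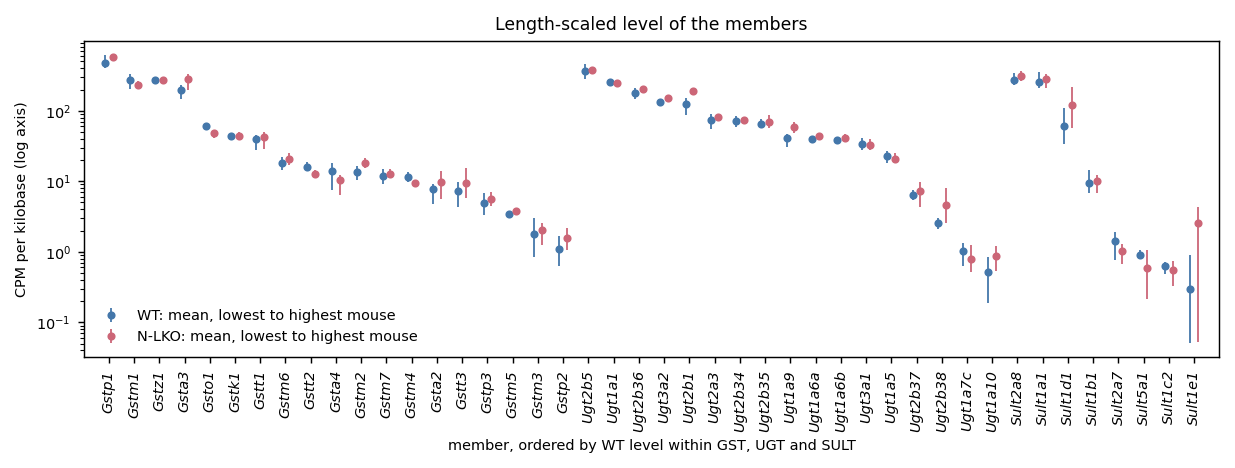
Length-scaled level (CPM per kilobase, log axis) of the 44 members at 0.5 CPM or more, ordered by WT mean within GST, UGT and SULT. Points are means of 4 mice and lines run from the lowest to the highest mouse. WT means of the GST genes run from 478 (Gstp1) to 1.09 (Gstp2), and Sult1e1 is the gene with the widest range in either genotype.

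With edgeR none of the 44 members passed an adjusted p of 0.05 between N-LKO and WT, where 1.04% of the 14214 genes tested did (0.823% higher and 0.218% lower in N-LKO). DESeq2 called 1 member, Ugt2b1, against 2.28% of the genes that it tested. At an unadjusted p under 0.05, 11 of 44 members (25% against a background of 12.8% of all genes) were counted, 8 higher in N-LKO and 3 lower (6.87% and 5.9% of all genes). The genotypes did not overlap for 4 members (9.09%), and for 7.52% of all genes. Of the 4, 2 were higher and 2 lower in N-LKO, against 4.2% and 3.32% of all genes. The log2 fold change was positive for 31 of 44 members (70.5%), and for 49.3% of all genes. This count was 29 when libraries were scaled by their totals alone and 25 without WT replicate 1. The median log2 fold change was 0.12 for the members and −0.0033 for all genes tested. Without WT replicate 1 the members' median was 0.06, and without N-LKO replicate 2 it was 0.20. The members tested had a median level of 42.7 CPM, against 10.4 CPM for all genes tested. Their median within-genotype SD of log2 CPM was 0.255, against 0.199. The background shares were not matched for level or spread. The genes share mice and regulators, and no test was made over the list.

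The interval of the difference was narrow for most members. The 95% interval lay inside a 1.5-fold change in both directions for 24 of the 44 genes and inside a 2-fold change for 33. For the other 11 (Gsta4, Gstm3, Gstp2, Gstt3, Sult1d1, Sult1e1, Sult2a7, Sult5a1, Ugt1a10, Ugt1a7c and Ugt2b38) the interval reached a 2-fold difference or more, and that of Sult1e1 lay wholly above it. Sult1e1 was also the only member tested whose estimate exceeded 2-fold. An adjusted p above the threshold does not show that the genotypes were alike.

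**Figure D3:**
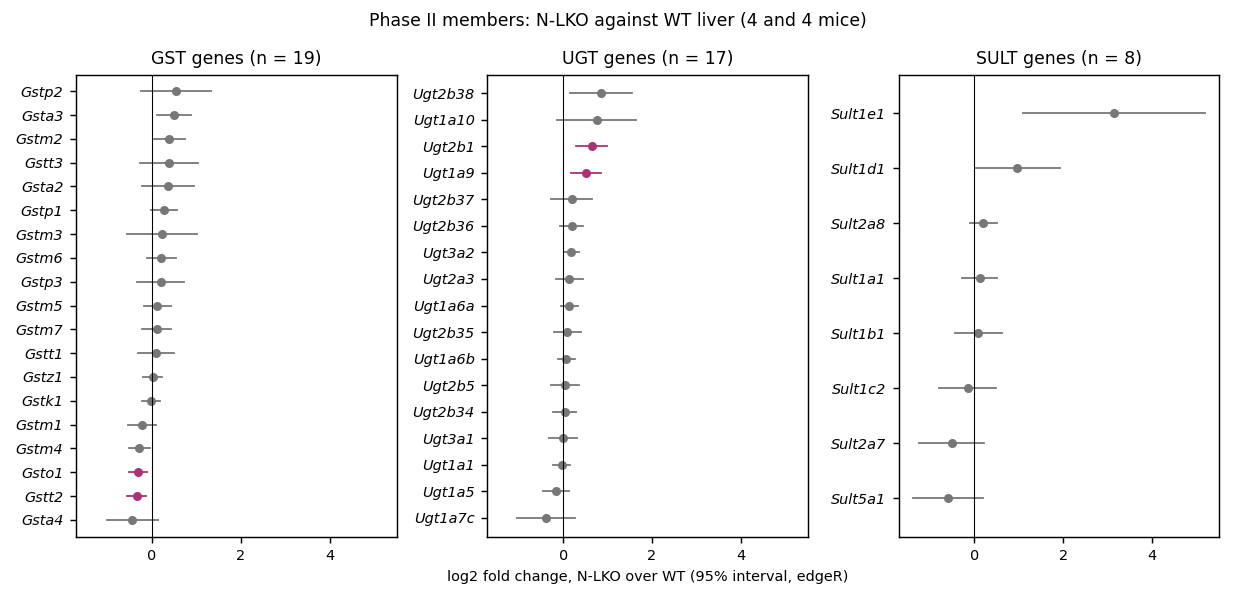
Log2 fold change of N-LKO over WT with its 95% interval (edgeR) for the 19 GST, 17 UGT and 8 SULT genes tested, ordered by estimate. Purple marks the 4 genes whose genotypes did not overlap (Ugt2b1, Ugt1a9, Gsto1 and Gstt2), and Sult1e1 has the largest estimate and the widest interval.

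Among UGT genes the smallest p was that of Ugt2b1, of a subfamily that glucuronidates steroids and drugs (chromosome 5, 86916638 to 86926530, minus strand). The estimates of Ugt2b38 and Ugt1a10 were larger. Ugt2b1 stood at 284, 227, 372 and 388 CPM in WT replicates 1 to 4 and at 508, 426, 529 and 518 CPM in N-LKO. Every N-LKO liver was above every WT liver. The N-LKO mean was 1.56-fold the WT mean (95% interval 1.22 to 1.98, log2 0.64 ± 0.158 SE), with an adjusted p of 0.105. DESeq2 gave an adjusted p of 0.00635. With a block by replicate, edgeR gave an adjusted p of 0.0427. The call thus depended on the tool and on the terms of the fit.

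All 7 Ugt2b genes had a positive log2 fold change, from 0.031 for Ugt2b34 to 0.86 for Ugt2b38, although Ugt2b34 turned to −0.0034 with library totals alone and 3 of the 7 turned negative when a WT or N-LKO mouse was left out. Ugt2b38 stood at 4.01, 4.06, 5.64 and 5.63 CPM in WT and at 5.95, 4.82, 15.1 and 9.23 CPM in N-LKO. N-LKO replicate 2 lay within the WT range, and the adjusted p was 0.281. Ugt2b5, its closest copy at 97.0% coding identity, ranged from 525 to 843 CPM in WT and from 648 to 711 CPM in N-LKO (fold 1.03, interval 0.831 to 1.28). The 7 genes summed to 1867 ± 327 CPM in WT and 2139 ± 34.3 CPM in N-LKO, with N-LKO inside the WT range.

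The Ugt1a locus as a whole, whose sum does not depend on the division of reads within it, gave 899 ± 58.4 CPM in WT and 931 ± 29.2 CPM in N-LKO, with overlap. Within it Ugt1a9, which glucuronidates phenols, stood at 66.1, 92.1, 101 and 100 CPM in WT and at 144.02, 114, 150 and 105 CPM in N-LKO. The lowest N-LKO liver (105 CPM) was just above the highest WT liver (101 CPM). The fold change was 1.43 (interval 1.13 to 1.80), with an adjusted p of 0.175. Its share of the counts of the locus was 7.80 to 11.9% in WT and 11.5 to 15.5% in N-LKO, and these ranges overlapped. Ugt1a1 differed little between the means (571 ± 53.1 and 557 ± 7.96 CPM, fold 0.975, interval 0.856 to 1.11). Ugt1a7c had the lowest estimate of the UGT genes, with 3.79, 3.19, 4.44 and 2.10 CPM in WT and 2.21, 4.09, 2.39 and 1.70 CPM in N-LKO, and the genotypes overlapped (log2 −0.38, adjusted p = 0.651).

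Outside these clusters Ugt2a3 stood at 118 to 193 CPM in WT and 154 to 188 CPM in N-LKO (adjusted p = 0.725). Ugt3a2, which uses UDP-sugars other than glucuronic acid, stood at 290, 304, 300 and 339 CPM in WT and 362, 329, 339 and 371 CPM in N-LKO. Only WT replicate 4 reached into the N-LKO range. The fold change was 1.14 (interval 1.01 to 1.28, adjusted p = 0.359).

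Of the 4 genes without overlap, the 2 that were lower in N-LKO were GST genes. Gstt2, a theta-class transferase (chromosome 10, 75831114 to 75837424, minus strand), stood at 33.9, 42.5, 35.3 and 34.1 CPM in WT and at 32.1, 27.4, 29.3 and 26.1 CPM in N-LKO. Every N-LKO liver was below every WT liver, by the smallest margin between 33.9 and 32.1 CPM. This was a fold change of 0.788 (interval 0.678 to 0.916, adjusted p = 0.159). Its neighbor Gstt1 ranged from 30.2 to 49.3 CPM in WT and from 31.7 to 55.8 CPM in N-LKO (adjusted p = 0.885).

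Gsto1, the omega-class enzyme that reduces dehydroascorbate and glutathionylated proteins (chromosome 19, 47854970 to 47864790, plus strand), stood at 64.6, 71.7, 73.5 and 76.3 CPM in WT and at 63.6, 49.04, 60.2 and 58.6 CPM in N-LKO. Again the genotypes did not overlap, with WT replicate 1 and N-LKO replicate 1 next to each other. This was a fold change of 0.809 (interval 0.704 to 0.930, adjusted p = 0.176).

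Gsta3, the most abundant alpha-class gene, stood at 215, 293, 299 and 340 CPM in WT and at 426, 283, 427 and 484 CPM in N-LKO. In Gsta3, 3 of 4 N-LKO livers were above all WT livers, and N-LKO replicate 2 was within the WT range. The fold change was 1.41 (interval 1.09 to 1.84, adjusted p = 0.237). Gsta4, which conjugates the lipid peroxidation product 4-hydroxynonenal, stood at 7.32, 14.5, 17.6 and 15.2 CPM in WT and at 12.1, 6.34, 10.5 and 11.2 CPM in N-LKO. Each genotype had 1 liver well below its other 3, and the genotypes overlapped (adjusted p = 0.532).

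In the Gstm cluster on chromosome 3 the copies were compared as levels and as shares of the cluster. Gstm1 stood at 261, 402, 425 and 324 CPM in WT and at 335, 261, 303 and 310 CPM in N-LKO, whereas Gstm2 stood at 11.2, 17.3, 16.8 and 12.97 CPM in WT and at 22.9, 16.3, 17.4 and 19.7 CPM in N-LKO. Both genes overlapped between the genotypes, with folds of 0.857 (interval 0.686 to 1.07) and 1.31 (1.04 to 1.67) and adjusted p of 0.571 and 0.315. Taken as a share of the counts of the 7 Gstm genes in the same liver, which cancels the scaling of libraries, Gstm2 made up 3.24 to 3.54% in WT and 4.54 to 5.33% in N-LKO. Gstm1 made up 80.8 to 82.9% in WT and 77.7 to 79.2% in N-LKO, and Gstm6 3.95 to 5.55% and 6.03 to 6.82%. None of these 3 shares overlapped between the genotypes, whereas those of Gstm3, Gstm4, Gstm5 and Gstm7 did. Over the 4 clusters read in this way, 4 of 22 shares did not overlap. The fourth was that of Sult1b1 in its cluster on chromosome 5 (12.0 to 19.0% in WT and 5.65 to 11.6% in N-LKO). No background was computed for this count, and the Ugt2b, Gsta, Gstp and Ugt3a genes were not read as shares. Shares of 1 cluster sum to a fixed total and so are not independent of each other. Gstm1 held most of its cluster, so a lower Gstm1 share raises the other copies' shares as a group. Gstm4 itself was lower in the N-LKO mean, at 16.7, 23.0, 20.9 and 19.1 CPM in WT and 17.3, 17.4, 15.5 and 15.2 CPM in N-LKO, with WT replicate 1 inside the N-LKO range (adjusted p = 0.293). The shares were examined after the values were seen and carry no test. Gstm1 shared 22.1% of its 45-base windows with other genes, Gstm2 9.83% and Gstm6 10.9%.

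**Figure D4:**
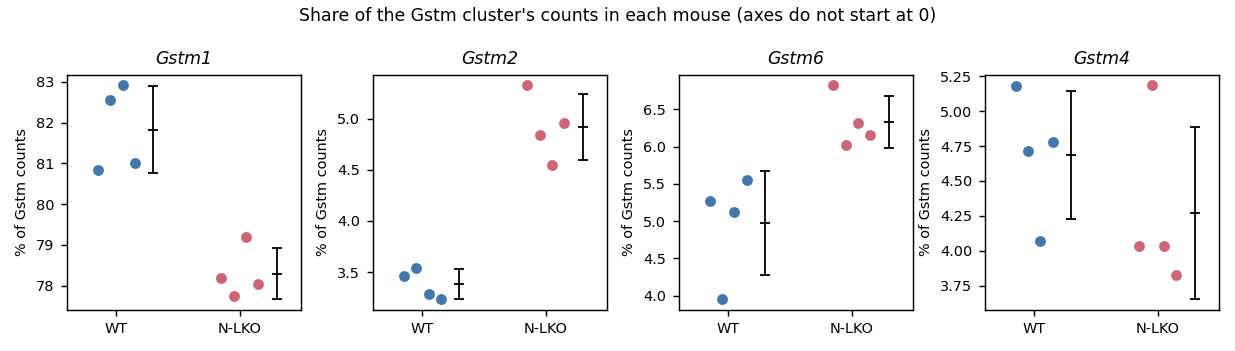
Percent of the summed counts of the 7 Gstm genes that fell to Gstm1, Gstm2, Gstm6 and Gstm4 in each mouse. Points are mice (replicates 1 to 4 from the left) and bars are mean ± SD. Gstm1 is lower and Gstm2 and Gstm6 are higher in all 4 N-LKO livers than in any WT liver, whereas Gstm4 overlaps. The axes do not start at 0.

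The remaining classes showed no separation. Gstp1 stood at 335, 339, 505 and 391 CPM in WT and 502, 412, 471 and 499 CPM in N-LKO, with WT replicate 3 the highest of all 8 livers (fold 1.20, interval 0.979 to 1.47). Gstp2, the GST gene with the largest positive estimate, was low at 0.908, 0.750, 1.33 and 0.497 CPM in WT and 1.76, 0.858, 1.53 and 0.883 CPM in N-LKO, with overlap (log2 0.54, adjusted p = 0.581). Gstz1 gave 453 ± 36.5 and 458 ± 45.5 CPM (fold 1.01, interval 0.874 to 1.17) and Gstk1, found in mitochondria and peroxisomes, 40.7 ± 3.42 and 40.4 ± 3.91 CPM (fold 0.992, interval 0.863 to 1.14). For these last 2 genes the interval lay inside a 1.5-fold change in either direction.

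The SULT genes varied most from mouse to mouse in the median. The median within-genotype SD of log2 CPM was 0.443 over the SULT genes tested, 0.250 over GST, 0.233 over UGT and 0.199 over all genes. Sult1c2, Sult1e1, Sult2a7 and Sult5a1 had low counts, whose sampling noise adds to the SD. Low genes of the other families also spread widely (Gstm3 0.594, Ugt1a10 0.674). The abundant Sult2a8 and Sult1a1 had SDs of 0.218 and 0.317. Of the SULT genes, Sult1e1 and Sult1d1 had the widest spread, with SDs of 1.83 and 0.783. With Sult1b1 they are adjacent on chromosome 5 (87513339 to 87591594, minus strand). Sult1e1, the estrogen sulfotransferase, had 2, 18, 1 and 3 counts in WT and 96, 1, 61 and 45 counts in N-LKO. On the CPM scale these were 0.107, 1.13, 0.0634 and 0.166 in WT and 5.44, 0.0660, 4.05 and 3.06 in N-LKO. For Sult1e1, 3 N-LKO livers stood above all WT livers, and N-LKO replicate 2 was among the lowest of the 8. The fold change was 8.81 (interval 2.14 to 36.2, log2 3.14 ± 0.925 SE, adjusted p = 0.171). Leaving out 1 mouse moved the log2 value between 2.73 and 4.71, the latter without WT replicate 2 (adjusted p = 0.107). Without N-LKO replicate 2 it was log2 3.55 with an adjusted p of 0.0279, and this was the only mouse whose removal led edgeR to call a member.

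Sult1d1, which sulfates catecholamines, stood at 142, 269, 81.4 and 97.2 CPM in WT and at 525, 138, 217 and 269 CPM in N-LKO. WT replicate 2 reached the level of N-LKO replicate 4, and N-LKO replicate 2 fell among the WT livers. Its fold change was 1.95 (log2 0.96, interval 1.01 to 3.77, adjusted p = 0.386). The log2 value was 0.50 without N-LKO replicate 1 and 1.43 without WT replicate 2. Sult1b1, which acts on phenols and thyroid hormones, stood at 19.4, 38.3, 17.8 and 22.9 CPM in WT and 31.8, 18.0, 26.1 and 28.3 CPM in N-LKO (adjusted p = 0.922). In all 3 genes WT replicate 2 was the highest and WT replicate 3 the lowest of the WT livers. N-LKO replicate 1 was the highest and N-LKO replicate 2 the lowest of the N-LKO livers. Sult1a1, which lies on chromosome 7, had the same highest and lowest mice, so this order was not particular to the cluster. For Sult1e1 the lowest WT place rested on 1 count against 2 and 3 in WT replicates 1 and 4.

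Of the other SULT genes, Sult2a8 stood at 534, 490, 601 and 724 CPM in WT and 677, 570, 784 and 674 CPM in N-LKO, with overlap (fold 1.15, interval 0.938 to 1.41). Sult1a1 ranged from 288 to 491 CPM in WT and from 286 to 452 CPM in N-LKO (fold 1.09, interval 0.823 to 1.43). Sult5a1 had the lowest estimate of all members, at 3.37, 3.19, 3.04 and 4.03 CPM in WT and 4.08, 1.72, 2.32 and 0.815 CPM in N-LKO. For Sult5a1, 3 N-LKO livers were below the WT range and N-LKO replicate 1 was above it (log2 −0.59, adjusted p = 0.542).

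**Figure D5:**
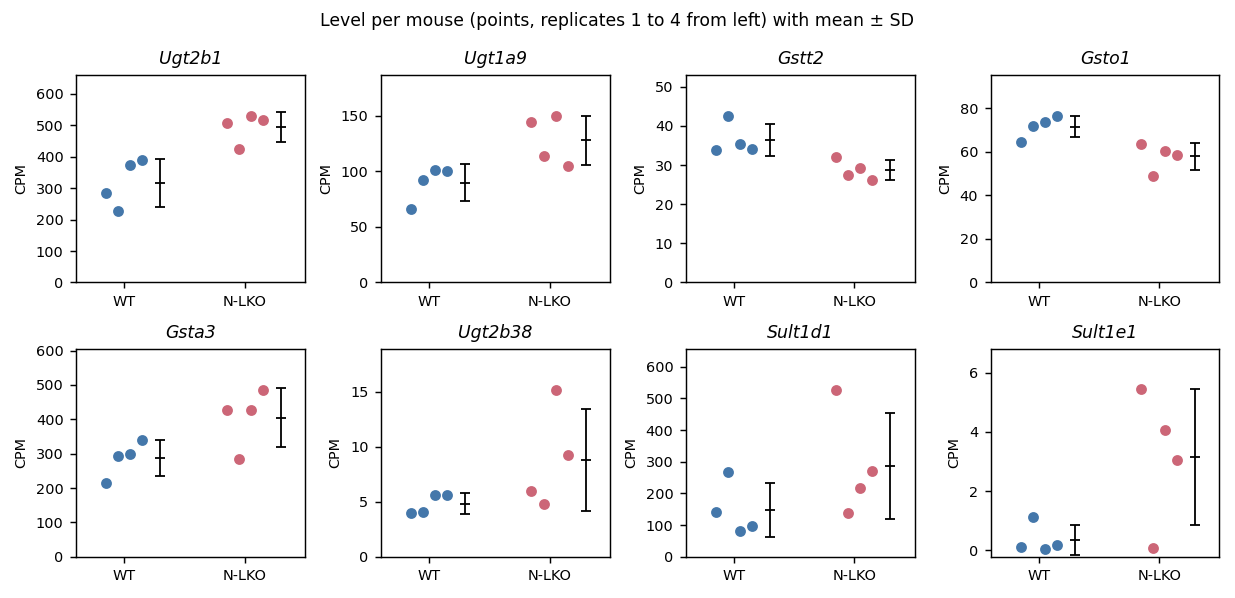
CPM of 8 members in each mouse (points, replicates 1 to 4 from the left in each genotype), with mean ± SD. Ugt2b1 and Ugt1a9 are higher and Gstt2 and Gsto1 lower in every N-LKO liver than in any WT liver. In Gsta3, Ugt2b38, Sult1d1 and Sult1e1 the second N-LKO point lies within the WT range.

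The same mice were at the edge of their genotype for many members. WT replicate 1 was the lowest WT liver for 25 of the 44 members tested and N-LKO replicate 2 the lowest N-LKO liver for 29. N-LKO replicate 1 was the highest for 20 and WT replicate 3 for 19. The same counts were not made over all genes, so they cannot show a trait particular to the members. The members are not independent of each other, and the part of these livers in the comparisons above was not tested beyond leaving each out in turn.

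Sequences before the start site were available for 42 of the 47 members (RefSeq, GRCm38.p6). They are printed for genes on which the results turn, from 250 to 31 bases before the start, and capitals mark GTTAAT or its reverse complement, a core letter pattern of sites bound by HNF1, a factor of hepatocyte genes.
Ugt2b1: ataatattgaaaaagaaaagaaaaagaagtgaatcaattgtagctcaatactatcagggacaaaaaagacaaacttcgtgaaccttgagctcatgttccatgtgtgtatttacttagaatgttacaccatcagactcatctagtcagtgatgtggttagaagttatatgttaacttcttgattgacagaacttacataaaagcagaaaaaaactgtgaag
Ugt1a9: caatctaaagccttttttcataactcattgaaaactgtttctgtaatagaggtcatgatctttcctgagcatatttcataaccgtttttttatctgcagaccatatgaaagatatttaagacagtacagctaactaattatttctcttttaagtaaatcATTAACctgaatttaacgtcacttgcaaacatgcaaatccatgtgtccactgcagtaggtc
Gsto1: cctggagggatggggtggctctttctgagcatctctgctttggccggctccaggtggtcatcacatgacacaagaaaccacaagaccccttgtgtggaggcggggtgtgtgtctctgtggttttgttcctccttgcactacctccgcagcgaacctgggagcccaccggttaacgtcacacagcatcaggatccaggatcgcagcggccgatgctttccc
Sult1d1: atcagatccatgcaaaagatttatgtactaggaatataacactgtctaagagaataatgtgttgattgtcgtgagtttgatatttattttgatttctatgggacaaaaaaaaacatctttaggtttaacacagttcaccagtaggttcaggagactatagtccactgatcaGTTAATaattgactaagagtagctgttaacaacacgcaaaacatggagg
Sult1e1: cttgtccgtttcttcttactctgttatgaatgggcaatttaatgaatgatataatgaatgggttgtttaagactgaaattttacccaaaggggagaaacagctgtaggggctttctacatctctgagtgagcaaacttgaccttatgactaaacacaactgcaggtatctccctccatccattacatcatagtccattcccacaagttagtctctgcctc
The printed windows are GRCm38 chr5:86926534-86926753 (minus strand), chr1:88070529-88070748 (plus), chr19:47854723-47854942 (plus), chr5:87569037-87569256 (minus) and chr5:87591642-87591861 (minus). The pattern began 91 bases before the Ugt1a9 start and 79 before that of Sult1d1. Searched on both strands over 250 bases, GTTAAT was in 9 of the 51 member entries (17.6%) and in 6.4% of all 32851 entries. It was in 6 of the 17 Ugt entries (35.3%), 2 of the 9 Sult entries and 1 of the 25 Gst entries. The antioxidant response core TGACNNNGC was in 3 of the 51 (5.9%, against 10.2% of all) and the aryl hydrocarbon receptor core GCGTG in 10 (19.6%, against 28.2%). These are matches of letters and were not tested for binding.

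The genes that supply and regulate conjugation were read in the same way. A list of 60 partner genes held cosubstrate supply, other conjugating enzymes, exporters, regulators and their reporter genes. Of the 53 tested, none passed edgeR's adjusted threshold, and 5 (9.43%, against 12.8% of all genes) had an unadjusted p under 0.05. The genotypes did not overlap for 3 of the 53 (5.66%), which is below the 7.52% of all genes. DESeq2 called Cyp3a11 (adjusted p = 0.00262) and Ephx2 (adjusted p = 0.0333) among those named here, where it called 2.28% of all genes that it tested. Its calls over the rest of the list are not given here. Ugdh, which makes UDP-glucuronic acid, stood at 104 ± 7.45 CPM in WT and 118 ± 7.31 CPM in N-LKO, with overlap (log2 0.19, adjusted p = 0.343). Papss2, which makes PAPS, gave 131 ± 23.6 and 153 ± 15.6 CPM (adjusted p = 0.493).

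Gclc, the rate-limiting enzyme of glutathione synthesis, gave 163 ± 35.8 and 141 ± 16.2 CPM (adjusted p = 0.594). Gsr, which recycles oxidized glutathione, stood at 94.8, 89.8, 101 and 94.0 CPM in WT and at 88.7, 89.6, 79.7 and 77.3 CPM in N-LKO. The genotypes did not overlap, by 89.8 against 89.6 CPM at the nearest (log2 −0.18, adjusted p = 0.351). Nat8, which acetylates cysteine conjugates on the way from glutathione adducts to mercapturic acids, stood at 1.60, 1.06, 2.98 and 2.81 CPM in WT and at 3.40, 3.23, 4.64 and 5.09 CPM in N-LKO. It was higher in every N-LKO liver (log2 0.95 ± 0.300 SE, adjusted p = 0.200). Ephx2, the soluble epoxide hydrolase, stood at 1350, 1460, 1595 and 1399 CPM in WT and at 1242, 1238, 1202 and 1173 CPM in N-LKO, again with no overlap (log2 −0.26, adjusted p = 0.224).

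None of the 12 regulators tested had an unadjusted p under 0.05. Nr1i2 (PXR) gave 45.05 ± 2.33 and 47.7 ± 1.62 CPM, Nr1i3 (CAR) 212 ± 37.9 and 179 ± 23.2 CPM, Nfe2l2 (NRF2) 67.2 ± 8.81 and 68.3 ± 9.20 CPM and Ahr 65.4 ± 9.53 and 72.3 ± 29.4 CPM. Cyp3a11, a gene induced through PXR, stood at 1383, 1881, 2596 and 2107 CPM in WT and at 4134, 2523, 3897 and 3381 CPM in N-LKO. N-LKO replicate 2 was the only N-LKO liver below a WT liver (log2 0.81 ± 0.201 SE, adjusted p = 0.106). Cyp2b10, a gene induced through CAR, spread from 0.331 to 8.19 CPM in WT and from 0.0664 to 3.57 CPM in N-LKO (adjusted p = 0.642). Nqo1, a target of NRF2, gave 4.83 ± 0.738 and 5.27 ± 0.990 CPM (adjusted p = 0.822).

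Several GST, UGT and SULT genes are expressed at different levels in male and female mouse liver, so genes known for such a bias were read beside them in these male mice. All 7 male-biased genes tested had a positive log2 fold change (49.3% of all genes did), 3 of them at an unadjusted p under 0.05 (12.8% of all genes), and none passed edgeR's adjusted threshold (lowest 0.0875 for Cyp7b1, log2 1.44). Of the 7 female-biased genes tested, 6 were positive, 3 at an unadjusted p under 0.05, with a lowest adjusted p of 0.105 for Cyp3a41a (log2 0.87), and the same shares of all genes apply. Of the listed female-biased genes too low to be tested, A1bg averaged 0.420 CPM in WT and 0.0997 CPM in N-LKO, with every N-LKO liver below every WT liver, and Cyp2b9 averaged 0.975 and 0.336 CPM, with overlap. The female-biased list thus held means in both directions.

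Markers of other cell types were also read in the same livers. Hepatocyte markers summed to 76748 ± 12229 CPM in WT and 74389 ± 6867 CPM in N-LKO, with overlap. Most of this sum was Alb, which averaged 58820 CPM in WT and 56184.5 CPM in N-LKO. The 6 cholangiocyte markers in the table summed to 23.1 to 44.95 CPM in WT and 52.5 to 133 CPM in N-LKO. The 5 fibroblast markers summed to 143.8 to 199 and 217 to 306 CPM. The cholangiocyte and fibroblast sums were also each mostly 1 gene. Spp1 averaged 23.9 CPM in WT and 68.1 CPM in N-LKO, and Dcn 143 and 193 CPM, the latter with overlap. All 4 cholangiocyte markers and all 5 fibroblast markers tested were positive, and 2 of each passed edgeR's adjusted threshold as higher in N-LKO, where 0.823% of all genes did. Both cholangiocyte markers too low to be tested were under 2 CPM in every liver, Krt7 with means of 0.362 CPM in WT and 0.357 CPM in N-LKO and Cftr with 0.177 and 1.01 CPM. Endothelial, Kupffer cell and stellate cell sums overlapped between the genotypes. Of the 4 intestine and pancreas markers listed, the table held Fabp2 and Vil1, both listed for intestine, and neither pancreas marker. Fabp2 averaged 155.5 CPM in WT and 109 CPM in N-LKO (no overlap), whereas Vil1 averaged only 0.113 and 0.221 CPM (overlap). Which cells the Fabp2 counts came from was not tested. The part of these markers in the member values was not tested. No kidney marker of the list of 3 was in the table.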

How the data were processed

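Liver RNA was sequenced from 4 WT and 4 N-LKO mice, each giving 1 library. What the authors deposited are expected counts per gene, which are estimates and can hold decimals. The study's methods give trimming, TopHat2 and cuffdiff, and the submitters' processing notes name STAR, Partek and mm9. The deposited gene starts match GRCm38 (GENCODE M21) for all 47 members. The counting program is not given in the sources used here.

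Counts were rounded, filtered with filterByExpr (minimum count 10, minimum total 15), given TMM factors and fitted by the quasi-likelihood method of edgeR 4.0.16 (R 4.3.3) over all 14214 genes, with genotype as the only term and Benjamini-Hochberg adjustment at 0.05. SE is the log2 fold change over the square root of F. The alternatives were RLE scaling, library totals, no filter, DESeq2 1.42.0, blocks by replicate or library number, and leaving out each mouse. Scripts were tested on simulated data. Replicates were compared with each other, and each pair differed by more than sampling noise (chi-square per degree of freedom 11.9 to 48.1). The p-values weigh the difference between the genotypes against the spread between mice of a genotype.

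Genes named were those with no overlap and an unadjusted p under 0.05, and the largest estimates in each family. The most abundant gene of each subfamily and fixed partner genes were also named. Some of them have values in every mouse, and others, such as Ugt1a1, Ugdh and the regulators, only ranges or mean ± SD. Cyp3a11 is on the partner list but was named outside these rules. Gsta3, Ugt2b38 and Sult1d1 in the plot, Gstm shares and cluster genes were added after their values were seen. Members and lists were chosen with earlier results of these data known.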

Additional observations from a re-analysis of the deposited data

Results flagged for a closer look

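In 5 of 118 sets of 4 mice examined (each member, Nus1, the summed families and the library total in each genotype), 1 mouse lay far from the other 3 by Dixon's ratio. Chance flags about 1 in 20 such sets, or 5.9 here. On the log2 CPM scale, Gsta2 was at 2.08 in WT replicate 1 against 2.88 to 3.02 in the other WT livers. Sult1e1 was at −2.41 in N-LKO replicate 2 against 1.67 to 2.48, and Ugt1a6a at 6.47 in the same liver against 6.72 to 6.75. Ugt2b5 was at 9.34 in N-LKO replicate 1 against 9.46 to 9.47. Nus1 was at 6.36 in WT replicate 1 against 6.49 to 6.50.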

How the results depend on the processing

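With RLE scaling, library totals, no filter or the library number block, edgeR called no member, as in the reported fit. DESeq2 called 1 (Ugt2b1) and 387 genes in all against 148. A replicate block called 1 member (Ugt2b1, log2 0.67, adjusted p = 0.0427). The residual correlations of livers with the same number in the titles were 0.062, −0.085, 0.040 and 0.043. By library number they were −0.0092, 0.166, 0.065 and 0.077. These values gave no clear sign of a pairing, but cannot show that no mice were paired. Leaving out 1 mouse at a time gave 71 to 173 genes called, with 83, 91 and 71 without WT replicates 2, 3 and 4 and 76 without N-LKO replicate 3, 0 to 1 members called (Sult1e1, log2 3.55, without N-LKO replicate 2), and 7 to 16 members at an unadjusted p under 0.05. Over these settings 11 members changed sign, none of them near the threshold. With library totals Gstz1 was at −0.019, Ugt2b34 at −0.0034 and Nfe2l2 at −0.0097 on the log2 scale. With 1 mouse left out the log2 fold change ran from −0.080 to 0.030 for Gstk1, −0.0041 to 0.24 for Gstm7, −0.044 to 0.24 for Gstt1, −0.025 to 0.072 for Gstz1, −0.041 to 0.38 for Sult1b1, −0.30 to 0.035 for Sult1c2, −0.10 to 0.0053 for Ugt1a1, −0.046 to 0.13 for Ugt2b34, −0.044 to 0.19 for Ugt2b35, −0.058 to 0.17 for Ugt2b5, −0.11 to 0.12 for Ugt3a1, −0.050 to 0.10 for Nfe2l2 and −0.18 to 0.27 for Ahr. The cause of these changes was not tested. With 4 mice a genotype, the width of the intervals limits what can be said of Sult1e1, Sult1d1 and the low genes.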
